A study of Danio rerio with 6 samples.

Results

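A group of 10 genes listed for the absorptive cells of the intestine, the enterocytes, was examined in *panx1a*-/- zebrafish larvae and in TL controls. Whether these genes are also expressed in other cells of the larva was not tested. The group holds *fabp2*, *fabp1b.1*, *rbp2a*, *mogat2*, *vil1*, *anpepa*, *anpepb*, *alpi.1*, *chia.2* and *cdx1b*. They were taken by their symbols, which each match 1 row of the count data, so they make up 10 of the 15336 genes listed. RNA of whole larvae at 6 days post fertilization (dpf) was compared between 3 libraries of *panx1a*-/- larvae and 3 libraries of wild-type larvae. All were untreated and of the Tupfel long fin (TL) strain. The *panx1a*-/- line carries a homozygous frameshift deletion made with TALENs, which are engineered nucleases. It descends from a single mutant allele, so the comparison is between 1 mutant line and its parent strain. How many larvae went into a library, and from which clutches, is not given in the sources used here. The p-values therefore measure only the spread between these libraries, which may in part be technical.

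Enterocytes line the intestine and take up digested nutrients through the brush border, a dense field of actin-filled microvilli on the side that faces the gut lumen. Villin bundles the actin of these microvilli, and enzymes anchored in their membrane, such as aminopeptidase N and intestinal alkaline phosphatase, finish digestion at the cell surface. Inside the cell, small binding proteins of the cytosol carry fatty acids and retinol, and acyltransferases rebuild triglycerides for export. By 6 dpf the zebrafish intestine has an open lumen and can absorb lipid and protein, while the larva still draws on the last of its yolk.

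Depth was 13054759 to 17776115 reads on genes in the *panx1a*-/- libraries and 17349457 to 21472044 in the TL controls. Levels are given as CPM, the counts scaled to a common library size with the TMM factors of edgeR, and 3 counts were worth between 0.155 and 0.209 CPM in a library. The targeted gene checked the labels, as *panx1a* had 22, 17 and 13 counts in *panx1a*-/- libraries, against 110, 114 and 147 counts in TL libraries (log2 fold change -2.72, standard error 0.26, edgeR adjusted p = 0.00793). Every adjusted p credited to edgeR comes from its quasi-likelihood test on all 6 libraries, with the Benjamini-Hochberg method over 12797 genes, unless a library is named as left out. Where 3 values are given for a genotype, they are those of replicates 1, 2 and 3 in this order. Of 35 markers of gut, pancreas, liver, muscle, retina and epidermis that were listed, 31 had a row in the data, and each of these had at least 7 counts in every library, so RNA of all these tissues was present. In RNA of whole larvae, fewer cells of a type and less RNA per cell cannot be told apart. Libraries also differed in ways that moved with genotype. Of the reads aligned to 1 place, 51.6%, 48.4% and 59.4% lay in no counted gene feature in the *panx1a*-/- libraries, against 42.9%, 30.2% and 30.7% in the TL libraries. A two-sided exact permutation test gave p = 0.1, and with 3 libraries on each side no p can be smaller. TL replicate 2 stood apart in its scaling factor, which was 0.771, against 0.961 to 1.1 in the other 5 libraries. With the share of reads in no gene feature as a covariate in the edgeR fit, 1 gene in all was called, the median log2 fold change of the 10 enterocyte genes was -0.38, and the estimates of *cdx1b* and *mogat2* were above 0. The share did not overlap between the genotypes.

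None of the 10 enterocyte genes passed the test, although the point estimates of all 10 lay on the side of lower levels in *panx1a*-/- larvae. At an adjusted p below 0.05 in edgeR's quasi-likelihood test, 0 of 10 were called lower and 0 were called higher, beside 11.8% of all 12797 genes tested called lower and 9.88% called higher. All 10 passed the filter on low counts. At an unadjusted p below 0.05, 4 of 10 were lower (*fabp1b.1*, *rbp2a*, *anpepb* and *alpi.1*), beside 23.6% of all genes. DESeq2 called 3, edgeR's exact test 3 and limma-voom 1 of the 10 lower and 0 higher at an adjusted p below 0.05. In the same fits they called 31.4%, 31% and 22.3% of all genes in either direction. Taken in either direction, 3 or 1 of 10 is no higher a share than that of all genes. The share of all genes called lower is not given for these fits. The log2 fold change was below 0 for 10 of 10, beside 53.2% of all genes, with a median of -0.73 against -0.06 over all genes tested. The median of the 10 genes was -1.08 without TL replicate 1 and -0.44 without TL replicate 2. Every *panx1a*-/- library lay below every TL library for 2 of 10, *anpepa* and *alpi.1*, beside 24.1% of all genes, a share close to that of the enterocyte genes.

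*fabp1b.1* and *rbp2a*, carriers of fatty acids and of retinol, had the largest point estimates of the 10 genes. *fabp1b.1*, a liver-type fatty acid binding protein copy that is expressed in the intestine, had 4.0, 2.23 and 9.66 CPM in *panx1a*-/- libraries, against 8.14, 71.0 and 25.4 CPM in TL libraries. The TL controls were spread over 8.72 times and the *panx1a*-/- libraries over 4.33 times, and the genotypes overlapped, with *panx1a*-/- replicate 3 above TL replicate 1. The log2 fold change was -2.73, which is 6.64 times lower in *panx1a*-/- larvae, with a standard error of 0.83 and a 95% interval of -4.65 to -0.81. The edgeR adjusted p was 0.0516, just short of the threshold. *rbp2a*, which encodes a cellular retinol-binding protein of enterocytes, had 33.9, 31.2 and 52.9 CPM in *panx1a*-/- libraries, against 48.6, 311 and 119 CPM in TL libraries. Again TL replicate 1 lay within the range of the *panx1a*-/- libraries and TL replicate 2 far above every other library. The log2 fold change of *rbp2a* was -2.02, or 4.06 times lower, with a standard error of 0.62, a 95% interval of -3.46 to -0.58 and an edgeR adjusted p of 0.0527.

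*fabp2*, the intestinal-type fatty acid binding protein and a standard marker of enterocytes, had a smaller point estimate than these. Its levels were 40.2, 36.0 and 77.9 CPM in *panx1a*-/- libraries, against 46.8, 173 and 87.8 CPM in TL libraries. Its log2 fold change was -1.0 with a standard error of 0.49, a 95% interval of -2.15 to 0.15 and an edgeR adjusted p of 0.157. The 6 libraries ran in the same order for *fabp2*, *fabp1b.1* and *rbp2a*, which from the lowest up was *panx1a*-/- replicate 2, *panx1a*-/- replicate 1, TL replicate 1, *panx1a*-/- replicate 3, TL replicate 3 and TL replicate 2.

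**Figure D1:**
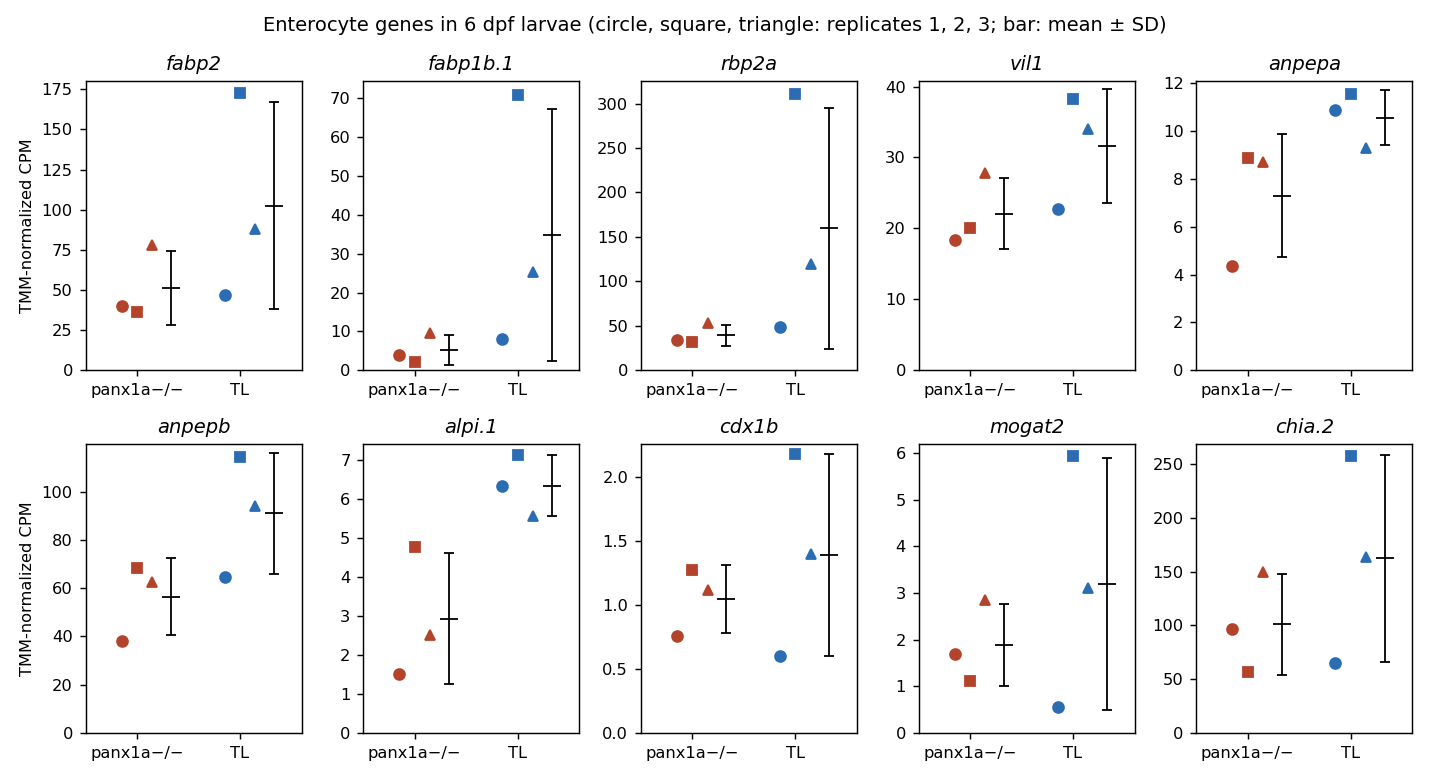
TMM-normalized CPM (linear axes from 0) of the 10 enterocyte genes in each library, with *panx1a*-/- in red on the left and TL in blue on the right of each panel, replicates 1, 2 and 3 as circle, square and triangle, and the mean with its SD (n = 3) as a bar. TL replicate 2 is the highest library in all 10 panels, and the genotypes are apart only for *anpepa* and *alpi.1*.

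*mogat2*, *chia.2* and *cdx1b* overlapped widely between the genotypes, and for *mogat2* and *cdx1b* the lowest library was a control. *mogat2* encodes a monoacylglycerol acyltransferase, which rebuilds diacylglycerol from absorbed monoacylglycerol, and had 1.68, 1.12 and 2.85 CPM in *panx1a*-/- libraries, against 0.546, 5.92 and 3.1 CPM in TL libraries. The controls spanned 10.8 times, the widest range of any of the 10 genes, on 10 to 98 counts a library. Its log2 fold change was -0.77 (standard error 0.73, 95% interval -2.48 to 0.94, edgeR adjusted p = 0.435). *chia.2* encodes an acidic chitinase, a secreted enzyme that cuts chitin, and had 1062 to 2149 counts in the *panx1a*-/- libraries and 1191 to 4264 in the controls. Its levels were 96.9, 56.4 and 149 CPM in *panx1a*-/- libraries, against 65.1, 258 and 164 CPM in TL libraries (log2 fold change -0.69, standard error 0.52, 95% interval -1.90 to 0.53, edgeR adjusted p = 0.331). Counting error is small beside this spread between libraries. *cdx1b*, a caudal-type homeobox transcription factor of the zebrafish intestine, was counted least, with 13 to 24 counts in the *panx1a*-/- libraries and 11 to 36 in the controls. Its levels were 0.754, 1.28 and 1.11 CPM in *panx1a*-/- libraries, against 0.601, 2.18 and 1.39 CPM in TL libraries, and the 95% interval of its log2 fold change, -1.50 to 0.71 around -0.40, held both directions (edgeR adjusted p = 0.539).

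The gene of the microvillus protein villin had a smaller point estimate than the lipid carriers. *vil1*, whose product bundles and severs actin, had 18.3, 20.1 and 27.8 CPM in *panx1a*-/- libraries, against 22.7, 38.2 and 34.0 CPM in TL libraries. Only TL replicate 1 lay within the range of the *panx1a*-/- libraries, and the spread within a genotype was the narrowest of the 10 genes in *panx1a*-/- larvae, at 1.52 times. The log2 fold change was -0.52 with a standard error of 0.24, a 95% interval of -1.08 to 0.04 and an edgeR adjusted p of 0.134.

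Among the hydrolases of the brush border, *alpi.1* and *anpepa* showed the opposite spread to the lipid carriers, with controls close together and *panx1a*-/- libraries further apart. *alpi.1*, an intestinal-type alkaline phosphatase, had 1.51, 4.78 and 2.5 CPM in *panx1a*-/- libraries, against 6.34, 7.13 and 5.58 CPM in TL libraries. Every *panx1a*-/- library lay below every control, also without TMM scaling, and the controls spanned 1.28 times against 3.17 times in *panx1a*-/- larvae. The log2 fold change was -1.10, or 2.15 times lower, with a standard error of 0.39, a 95% interval of -2.0 to -0.21 and an edgeR adjusted p of 0.0698. *anpepa*, a membrane alanyl aminopeptidase of the aminopeptidase N family, had 4.35, 8.87 and 8.69 CPM in *panx1a*-/- libraries, against 10.9, 11.5 and 9.29 CPM in TL libraries. These ranges were apart by a small margin, and *panx1a*-/- replicate 1 was far below the rest. They overlapped when the counts were scaled by library size alone. The fit gave a smaller estimate than for *alpi.1* (log2 fold change -0.53, standard error 0.29, edgeR adjusted p = 0.180). *anpepb*, the aminopeptidase copy with more counts, had 38.2, 68.3 and 62.4 CPM in *panx1a*-/- libraries, against 64.6, 114 and 94.0 CPM in TL libraries. Its log2 fold change was -0.69, with a standard error of 0.28, a 95% interval of -1.34 to -0.04 and an edgeR adjusted p of 0.0988. Only *panx1a*-/- replicate 2 reached into the range of the controls. The symbol anpepa is today both a current symbol and an older name of *anpeplb* in the RefSeq annotation of the assembly GRCz12tu, so which of these genes the row counts is uncertain, and anpepb is listed there as an older name of *anpepb.1*.

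The calls turned on which libraries were in the fit. Without TL replicate 1, the control closest to the *panx1a*-/- libraries, 4 of the 10 genes were called lower by edgeR's quasi-likelihood test. In the same fit 36.4% of all genes were called in either direction. The 4 genes were *fabp1b.1* (log2 fold change -3.2, edgeR adjusted p = 0.0199), *rbp2a* (-2.44, edgeR adjusted p = 0.0126), *vil1* (-0.71, edgeR adjusted p = 0.0327) and *anpepb* (-0.88, edgeR adjusted p = 0.0373). Without TL replicate 2, the highest control, none was called, and the estimate was -1.69 for *fabp1b.1* and -1.1 for *rbp2a*. Those of *cdx1b* (0.060) and *mogat2* (0.016) were on the other side of 0. The number of all genes called was 2770 with all 6 libraries, 4708 without TL replicate 1 and 142 without TL replicate 2. It was 3 without TL replicate 3, 19 without *panx1a*-/- replicate 1, 3658 without *panx1a*-/- replicate 2 and 4 without *panx1a*-/- replicate 3. *alpi.1* depended little on these controls, with -1.09 without TL replicate 1 and -1.02 without TL replicate 2, and of the fits that dropped 1 library only that without *panx1a*-/- replicate 2 called it (-1.66, edgeR adjusted p = 0.0132).

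**Figure D2:**
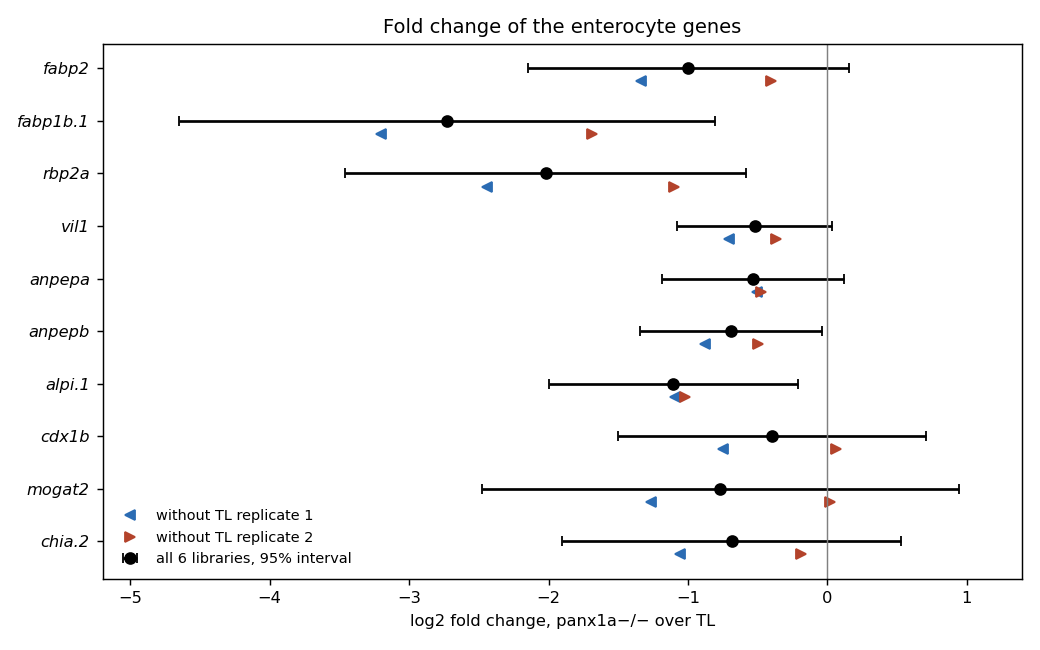
Log2 fold change (*panx1a*-/- over TL) of the 10 enterocyte genes from edgeR's quasi-likelihood fit, with 95% intervals from all 6 libraries as black points and bars, and the estimates without TL replicate 1 (blue triangles) and without TL replicate 2 (red triangles). All 10 black points are below 0, and leaving out TL replicate 2 moves *fabp1b.1* to -1.69 and *rbp2a* to -1.1 but barely moves *anpepa* and *alpi.1*.

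Across the libraries the 10 genes formed a graded pattern more than a split by genotype. TL replicate 2 was the highest of the 6 libraries for 10 of 10 genes, beside 27.8% of all genes tested, and for 6 of 10 when counts were scaled by library size alone, beside 1036 of all 12797 genes. The lowest library was *panx1a*-/- replicate 2 for *fabp2*, *fabp1b.1*, *rbp2a* and *chia.2*, *panx1a*-/- replicate 1 for *vil1*, *anpepa*, *anpepb* and *alpi.1*, and TL replicate 1 for *cdx1b* and *mogat2*. Within a genotype the genes varied more than most, as the median ratio of the highest to the lowest library was 2.1 in *panx1a*-/- larvae and 3.66 in TL larvae, against 1.37 and 1.46 over all genes tested. Summed over the 10 genes, the level was 239.8, 230.3 and 395 CPM in *panx1a*-/- libraries and 274, 992 and 543 CPM in TL libraries.

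Over the 6 libraries, *fabp2* ran closely with *fabp1b.1* (Pearson's r of the log2 levels 0.97), *rbp2a* (0.96) and *vil1* (0.96), and *mogat2* ran with *chia.2* (0.96). *anpepa* ran with *alpi.1* (0.90), but *alpi.1* had next to no relation to *mogat2* (0.09) or *chia.2* (0.14). These are descriptions over 6 points that share their scaling factors and genotype, and no test was made. *anpepb* lay between the groups, at 0.85 with *alpi.1* and 0.78 with *fabp2*. Outside the 10 genes, the profiles most like their mean were those of *ucmaa* (r = 0.999 over 6 libraries), *hadhab* (0.997), *tm4sf5* (0.997), *pon3.2* (0.994) and *ugt1a4* (0.991), none of which passed the test. Of these, *tm4sf5* had 2.03, 2.44 and 3.41 CPM in *panx1a*-/- libraries, against 2.62, 7.31 and 4.96 CPM in TL libraries. This shows the shape they share, with TL replicate 1 among the *panx1a*-/- libraries and TL replicate 2 on top.

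**Figure D3:**
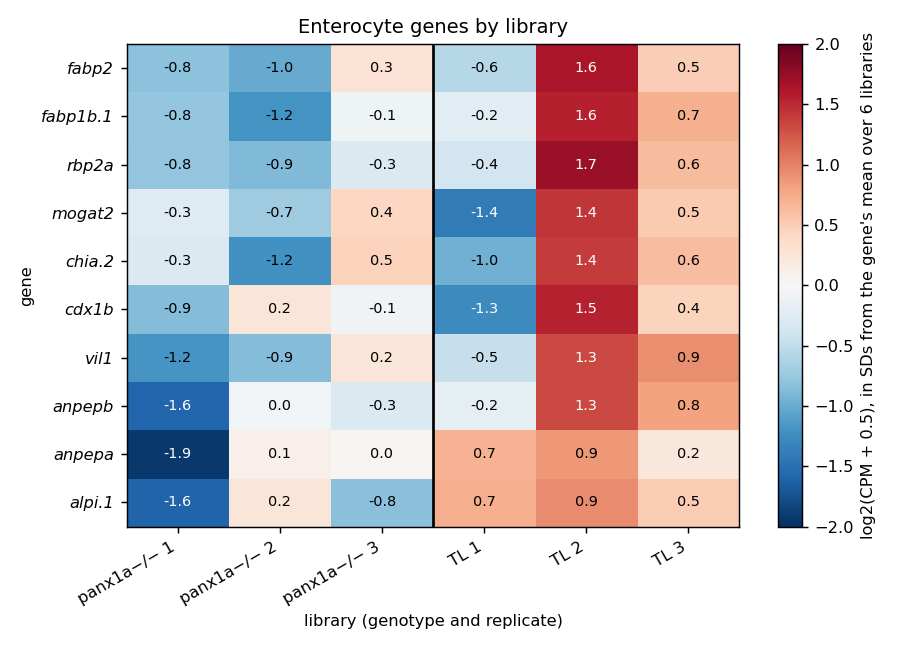
Level of each enterocyte gene in each library, as log2(CPM + 0.5) in SDs from the gene's mean over the 6 libraries, with *panx1a*-/- replicates 1 to 3 left of the black line and TL replicates 1 to 3 right of it (red above, blue below the mean). TL replicate 2 is red in all 10 rows, TL replicate 1 is blue except for *anpepa* and *alpi.1*, and *panx1a*-/- replicate 1 is the darkest blue for *anpepa*, *anpepb* and *alpi.1*.

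Ratios of the counts of 2 genes within a library do not depend on the scaling. Of the 45 pairs among the 10 genes, 11 (24.4%) had ratios that did not overlap between the genotypes, against 45.0% of all pairs of tested genes. Of these 11 pairs, 10 held *fabp1b.1* or *rbp2a*. No ratio can reach a p below 0.1 in a two-sided exact permutation test of 3 libraries against 3. The log2 ratio of *fabp2* to *fabp1b.1* counts was 3.32, 3.99 and 3.01 in *panx1a*-/- libraries, against 2.52, 1.28 and 1.79 in TL libraries, a difference of 1.58 between the means (3.44 ± 0.51 and 1.86 ± 0.62, SD, n = 3 each). This pair is given as a description, chosen from the 45 with its values known. The log2 ratio of *fabp2* to *rbp2a* was 0.25, 0.21 and 0.56 in *panx1a*-/- libraries, against -0.05, -0.85 and -0.44 in TL libraries. Of the 12796 other genes tested, 0.946% had a ratio to *fabp2* that was lower in every *panx1a*-/- library than in every TL library, and *fabp1b.1* and *rbp2a* were among them. As the reference, *fabp2* was taken with these ratios known, and its own log2 fold change was -1.0. The share therefore does not measure how rare such ratios are.

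The ratios of *fabp1b.1* and *rbp2a* were also lower in every *panx1a*-/- library against *chia.2*, *vil1*, *cdx1b* and *mogat2*. The log2 ratio of *fabp1b.1* to *chia.2* was -4.59, -4.64 and -3.95 in *panx1a*-/- libraries, against -2.99, -1.86 and -2.69 in TL libraries. That of *rbp2a* to *chia.2* was -1.52, -0.85 and -1.50 in *panx1a*-/- libraries, against -0.42, 0.27 and -0.46 in TL libraries. TL replicate 1, which had low levels of both carriers, had them in a ratio to *chia.2* like that of the other controls. The only other pair without overlap was that of the hydrolases *anpepa* and *alpi.1*, with a log2 ratio of 1.51, 0.89 and 1.78 in *panx1a*-/- libraries, against 0.78, 0.69 and 0.73 in TL libraries. The ratio of *anpepa* to *anpepb* overlapped between the genotypes, at -3.13, -2.94 and -2.84 in *panx1a*-/- libraries, against -2.57, -3.30 and -3.33 in TL libraries (two-sided exact permutation test, p = 0.8).

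**Figure D4:**
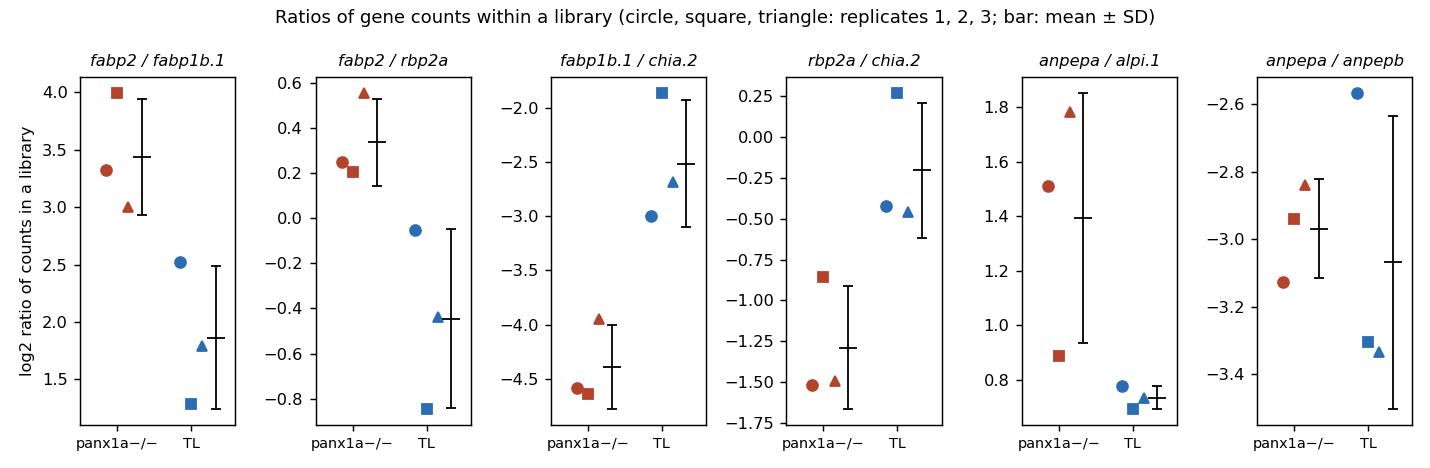
Log2 ratio of the counts of 2 enterocyte genes in each library for 6 pairs, each panel with its own axis, with *panx1a*-/- in red on the left and TL in blue on the right, replicates 1, 2 and 3 as circle, square and triangle and the mean with its SD (n = 3) as a bar. The genotypes are apart in every panel but the last, *anpepa* over *anpepb*.

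Close relatives of these genes in the data did not pass the test either. *rbp2b*, the other copy of the retinol-binding protein, had 0.638, 0.478 and 0.348 CPM in *panx1a*-/- libraries, against 0.656, 7.50 and 1.70 CPM in TL libraries, the same order of controls as for *rbp2a* (log2 fold change -2.71, standard error 0.89, edgeR adjusted p = 0.0628). With 5 to 12 counts in 4 of the 6 libraries, its controls were apart from the *panx1a*-/- libraries by a margin within counting error for TL replicate 1. *mogat3b*, a relative of *mogat2*, was apart between the genotypes, with 2.03, 2.66 and 2.71 CPM in *panx1a*-/- libraries, against 3.00, 6.59 and 5.21 CPM in TL libraries (log2 fold change -1.0, edgeR adjusted p = 0.0595). *cdx1a*, the other *cdx1* copy (log2 fold change -1.17, edgeR adjusted p = 0.118), and *alpi.2* (-0.67, edgeR adjusted p = 0.235) overlapped between the genotypes. The point estimates of the chitinases lay on both sides of 0. *chia.1* had 15.8, 6.16 and 27.0 CPM in *panx1a*-/- libraries, against 3.44, 20.4 and 4.34 CPM in TL libraries (log2 fold change 0.80, edgeR adjusted p = 0.429), and *chia.3* (-0.73, edgeR adjusted p = 0.594) and *chia.6* (-0.07, edgeR adjusted p = 0.889) did not pass edgeR's quasi-likelihood test either. The list of chitinases tested beside *chia.2* held 4 genes, these 3 and *ctbs*, which is not a *chia* copy. Of the 4, 0 were called by this test or by limma-voom, and DESeq2 and edgeR's exact test each called 1 lower. In edgeR's quasi-likelihood test 1 was lower at an unadjusted p below 0.05. It was *ctbs* (-1.14, edgeR adjusted p = 0.0574), named after its value was seen. *fabp1a*, *chia.4* and *chia.5* had too few counts to be tested. Reads aligned to more than 1 place were set aside in a row of their own and entered no gene. Relative to that row and the reads aligned to 1 place together, it held 15.4%, 15.3% and 21.3% in *panx1a*-/- libraries. In TL libraries it held 21.3%, 12.7% and 11.9%. How many of these reads came from such copies was not tested.

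Among other genes of brush border structure, calls went both ways. Of 22 tested, 3 were called lower and 2 higher, beside 11.8% and 9.88% of all genes tested, with a median log2 fold change of -0.57 against -0.06 over all genes. *prom2*, a prominin of membrane protrusions, fell to 1.16, 3.29 and 1.67 CPM in *panx1a*-/- libraries, against 7.16, 14.0 and 10.2 CPM in TL libraries (log2 fold change -2.34, edgeR adjusted p = 0.0279). *baiap2l1a*, an adaptor between membrane and actin, fell as well (-1.61, edgeR adjusted p = 0.0401). *eps8*, which caps actin in microvilli and in the stereocilia of hair cells, rose to 138, 63.1 and 111 CPM in *panx1a*-/- libraries, against 47.0, 37.8 and 34.3 CPM in TL libraries (1.39, edgeR adjusted p = 0.0298). The other called genes, chosen for naming after their values were seen, were *pls1* (lower) and *espn* (higher), which both encode actin bundlers and are also used outside the gut. Of 11 other brush border hydrolases, 2 were called lower and 0 higher, with a median of -0.57. These were the meprin copies *mep1a.1*, with 7.83, 13.3 and 13.3 CPM in *panx1a*-/- libraries, against 18.1, 36.5 and 28.4 CPM in TL libraries (log2 fold change -1.27, edgeR adjusted p = 0.0343), and *mep1a.2* (-1.36, edgeR adjusted p = 0.0354). Of 24 genes listed as brush border nutrient transporters, 4 were called lower and 0 higher (median -0.39). The list was written from gene symbols. Whether these genes are expressed outside the gut, or act on another side of the enterocyte, was not tested. Among the 4 were the sodium-proton exchanger *slc9a3.2* (-2.16, edgeR adjusted p = 0.0342), the aquaporin *aqp3a* (-1.62, edgeR adjusted p = 0.0345) and the amino acid transporter chain *slc3a2a* (-0.85, edgeR adjusted p = 0.0351). The remaining one, *abcg2a*, an efflux pump, was named after its value was seen.

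Of 20 other genes of fatty acid and retinol binding and uptake, 3 were called lower and 1 higher, with a median log2 fold change of -0.53. The retinol-metabolizing dehydrogenases *rdh1* and *dhrs9* fell together, with *rdh1* at 1.68, 1.38 and 2.43 CPM in *panx1a*-/- libraries, against 4.32, 11.8 and 8.11 CPM in TL libraries (log2 fold change -2.14, edgeR adjusted p = 0.0279), and *dhrs9* at -1.18 (edgeR adjusted p = 0.0306). *slc27a4*, a fatty acid transport protein, rose, with 7.07, 5.31 and 8.90 CPM in *panx1a*-/- libraries, against 2.13, 3.63 and 3.2 CPM in TL libraries (1.24, edgeR adjusted p = 0.0331), and its relative *slc27a2a*, named after its value was seen, was called lower. Of 28 genes of triglyceride synthesis and lipid export, 1 was called lower and 1 higher (median -0.39). Both encode glycerol-3-phosphate acyltransferases, with *gpat3* at 3.65, 4.73 and 3.13 CPM in *panx1a*-/- libraries, against 6.01, 16.9 and 11.3 CPM in TL libraries (-1.56, edgeR adjusted p = 0.0339), and *gpat4* higher at 0.84 (edgeR adjusted p = 0.0331). Of 26 transcription factors of the intestinal epithelium, 3 were called lower and 2 higher (median -0.51). *nr1i2*, the pregnane X receptor, fell to 2.49, 3.83 and 3.34 CPM in *panx1a*-/- libraries, against 9.29, 12.6 and 12.1 CPM in TL libraries (-1.81, edgeR adjusted p = 0.0221). The nuclear receptors *vdrb* (1.26, edgeR adjusted p = 0.0264) and *pparaa* (0.94, edgeR adjusted p = 0.0331) rose in the same edgeR test, and *hnf1bb* and *pparg*, named after their values were seen, were called lower. Without TL replicate 2, when 1.1% of all genes were called, 1 transcription factor gene and 0 genes of the other lists in this and the preceding paragraph were called by edgeR's quasi-likelihood test.

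**Figure D5:**
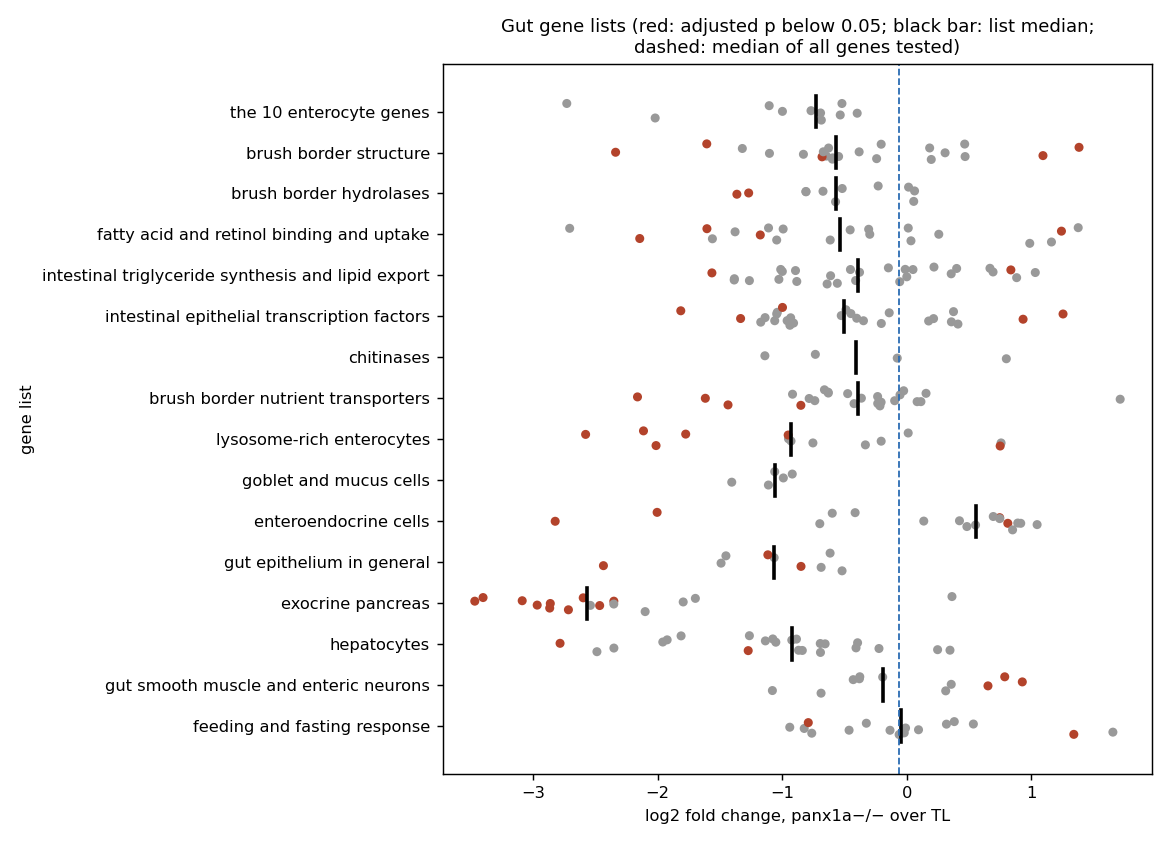
Log2 fold change (*panx1a*-/- over TL, edgeR's quasi-likelihood fit) of each tested gene in the 10 enterocyte genes and 15 further lists, one list per row, with genes at an adjusted p below 0.05 in red, the list's median as a black bar and the median of all tested genes, -0.06, as a dashed line. No enterocyte gene is red, while the exocrine pancreas holds 10 red points, all below 0.

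Genes of the exocrine pancreas and of hepatocytes shared the high level in TL replicate 2 with the enterocyte genes. Of 13 genes of lysosome-rich enterocytes, 8 were highest there in TMM-normalized CPM. The muscle markers *ckma* and *mylpfa* and the epidermal markers *krt4* and *cyt1* were highest there too. Of 17 enteroendocrine genes, 4 were highest in TL replicate 2, and of 11 genes of gut smooth muscle and enteric neurons, 3 were. Over all genes tested the share was 27.8%. In their summed levels, hepatocyte and lysosome-rich enterocyte genes also shared the order of the controls, with TL replicate 1 lowest. The pancreas sum was nearly level in TL replicates 1 and 3, at 2473 and 2540 CPM, and its genes differed in order. Among the controls, *prss59.1* and *prss59.2* were lowest in TL replicate 1 and *cpb1* in TL replicate 3. In TL replicate 3, the deeper library, *ctrb1*, *cel.1* and *amy2a* also had fewer counts than in TL replicate 1. The order of the *panx1a*-/- libraries in the enterocyte sum was not shared by the sums of pancreas, hepatocyte or lysosome-rich enterocyte genes. For hepatocytes this rested on *rbp4* alone. The part of these cell types in the values of the 10 genes was not tested. Among the *panx1a*-/- libraries the summed level of the enterocyte genes was highest in replicate 3 and that of pancreas genes in replicate 1. Those of hepatocytes and lysosome-rich enterocytes were highest in replicate 2. These sums rest on the most abundant genes. Of the enterocyte genes, *anpepa*, *anpepb*, *alpi.1* and *cdx1b* were highest in replicate 2 among these libraries. The hepatocyte sum held *rbp4* at 315, 620 and 365 CPM in *panx1a*-/- libraries, of 580, 851 and 694 CPM in all. The rest of this sum was highest in replicate 3 and lowest in replicate 2, as the enterocyte sum was. For the exocrine pancreas, 10 of 16 genes were called lower and 0 higher, with a median log2 fold change of -2.57 and a summed level of 1005 to 1184 CPM in the *panx1a*-/- libraries against 2473 to 15398 CPM in the controls, highest in TL replicate 2. The trypsin gene *prss59.1* fell to 47.8, 36.8 and 46.5 CPM in *panx1a*-/- libraries, against 147, 1058 and 182 CPM in TL libraries (log2 fold change -3.40, edgeR adjusted p = 0.0331), followed by *cpb1* (-2.86, edgeR adjusted p = 0.0339) and *prss59.2* (-3.09, edgeR adjusted p = 0.0345). For hepatocytes, 2 of 23 genes were called lower, *rbp4* (-1.27, edgeR adjusted p = 0.0414) and *serpina1* (-2.79, edgeR adjusted p = 0.0481), with a median of -0.92, and the summed level was 580 to 851 CPM in the *panx1a*-/- libraries against 945 to 2923 CPM in the controls. TL replicate 2 was the highest library for 23 of 23 hepatocyte genes and for 15 of 16 pancreas genes. Lysosome-rich enterocytes, the cells of the posterior gut that take up protein whole, had 5 of 13 genes called lower and 1 higher (median -0.93). Of these, the cathepsin *ctsbb* had 11.8, 24.8 and 13.1 CPM in *panx1a*-/- libraries, against 45.2, 132 and 120 CPM in TL libraries (-2.58, edgeR adjusted p = 0.0279), with *ctsz* at -2.01 (edgeR adjusted p = 0.0279) and the endocytic adaptor *dab2* at -1.78 (edgeR adjusted p = 0.0331). In TL replicate 2, *ctsbb*, *ctsz* and *dab2* had 2188, 2027 and 1295 counts. In TL replicate 3, the shallower library, they had more, at 2325, 2062 and 1306. Their top place in TL replicate 2 thus rests on the TMM scaling. *ctsl.1* and *neu1* (lower) and *hexb* (higher), all lysosomal enzymes, were named after their values were seen. Without TL replicate 2, 6 of the pancreas genes were called lower, with a median of -1.13, and 0 of the hepatocyte genes and 0 of those of lysosome-rich enterocytes. In that fit 1.1% of all genes were called in either direction. Without TL replicate 3, without *panx1a*-/- replicate 1 or without *panx1a*-/- replicate 3, 0 genes of any of the 15 lists were called. These fits called only 0.0233%, 0.146% and 0.0308% of all genes, so the 0 says nothing particular about the lists.

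The remaining lists hold other cells of the gut and the response to feeding. Of 9 genes of gut epithelium in general, 3 were called lower and 0 higher (median -1.06), *krt4* at -2.44 (edgeR adjusted p = 0.0289), *lgals2a* at -0.85 (edgeR adjusted p = 0.0395) and *cldn15la* at -1.11 (edgeR adjusted p = 0.0466), and *krt4* is a keratin of the epidermis as well. Of 16 genes listed for goblet and mucus cells, only 5 had a row in the data, and *foxa3* among them is also in the list of transcription factors. How far these 5 mark goblet cells was not tested. Of the 5, 0 were called (median -1.06). The more abundant ones, *cldnh* (-0.99, edgeR adjusted p = 0.197) and *muc13b* (-0.92, edgeR adjusted p = 0.129), were lowest in *panx1a*-/- replicate 1, as the hydrolases were. At an unadjusted p below 0.05, 1 of these 5 was lower in edgeR's quasi-likelihood test, DESeq2 and edgeR's exact test each called 1 lower and limma-voom 0. Without *panx1a*-/- replicate 2, the library with the most *cldnh* and *muc13b* of that genotype, all 5 were called lower with a median of -1.94. In that fit 28.2% of all genes were called in either direction, and every other fit that left out 1 library called 0 of the 5. Of 17 enteroendocrine genes, 2 were called lower and 2 higher, with a median of 0.55. The gut hormones *gip* (-2.82, edgeR adjusted p = 0.0279) and *insl5a* (-2.01, edgeR adjusted p = 0.028) fell, on 1 to 5 counts a library for *gip* in *panx1a*-/- larvae, while the channel gene *trpa1b* (0.81, edgeR adjusted p = 0.0387) and the transcription factor *neurod1*, both also expressed in neurons, rose. In the list of gut smooth muscle and enteric neurons, 0 of 11 genes were called lower and 3 higher, *vip* (0.93, edgeR adjusted p = 0.0298), *ret* (0.79, edgeR adjusted p = 0.0355) and *phox2bb* (0.65, edgeR adjusted p = 0.0365), which neurons outside the gut express too. Of 17 genes of the feeding and fasting response, 1 was called lower, the lipid synthesis regulator *srebf1* (-0.79, edgeR adjusted p = 0.0347), and 1 higher, the sterol synthesis enzyme *hmgcra* (1.34, edgeR adjusted p = 0.0298), with a median of -0.04.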

How the data were processed

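Total RNA of untreated 6 dpf whole larvae was sequenced as directional paired-end libraries, 3 of *panx1a*-/- larvae and 3 of TL larvae. For each library, the authors deposited unnormalized counts per gene. The submitters' processing notes list bcl2fastq 2.17, FastQC 0.11.2, Trim Galore 0.4.4, TopHat2 2.0.11, HTSeq 0.6.1p2 and the build danRer11, and the annotation and the strand setting are not given in the sources used here. The 5 rows of unassigned reads were left out of library sizes and tests. The row of reads in no gene feature held 30.2% to 59.4% of reads aligned to 1 place, and Wilson intervals of these shares and the floor of 3 counts cover counting error only.

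Counts were tested with edgeR 4.0.16 in R 4.3.3 by the quasi-likelihood test with robust estimation, TMM factors, edgeR's default filter on low counts (12797 of 15336 genes) and genotype as the only term. P-values were adjusted over all tested genes by the Benjamini-Hochberg method, and genes at an adjusted p below 0.05 were called. Standard errors were taken as the absolute log2 fold change over the square root of F, and 95% intervals use the degrees of freedom of the fit. Ratios of counts within a library are log2 ratios after adding 0.5 to each count. The biological coefficient of variation was 0.254. Libraries of a genotype differed by more than sampling noise and each was kept. Fits were tested on simulated data. Permutation tests used scipy 1.17.1 under Python 3.11.15. Alternatives were DESeq2 1.42.0, edgeR's exact test, limma-voom (limma 3.58.1), other scalings and filters, the replicate block, the share of reads matched to no gene feature as a covariate, and leaving out each library.

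The 10 genes and the other gene lists were chosen with earlier results of these data known. From each list, up to 3 called genes with the smallest adjusted p are named, or, where none was called, up to 2 with the highest mean CPM, with the relatives of the 10 genes, the 5 genes with the most similar profile, and *panx1a*. Current symbols were taken from the RefSeq annotation of GRCz12tu, in which all 10 genes matched by symbol or synonym. *vill*, *fabp1b.2* and *mogat3a*, also sought as relatives, had no row in the data under these symbols.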

Additional observations from a re-analysis of the deposited data

How the results depend on the processing

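The number of the 10 enterocyte genes called lower, 0 in the result given, was 3 with DESeq2 and 3 with edgeR's exact test (*fabp1b.1*, *rbp2a* and *alpi.1* in both), 1 with limma-voom (*alpi.1*) and 2 with upper-quartile factors (*fabp1b.1* and *rbp2a*), where 31.4%, 31%, 22.3% and 21.9% of all genes were called. Leaving out 1 library at a time gave 0 to 4. It was 4 without TL replicate 1 and 1 without *panx1a*-/- replicate 2, where 36.4% and 28.2% of all genes were called. With the replicate number as a block it was 2 (*anpepb* and *alpi.1*), but the numbers were not taken as pairs, because the deviations of same-numbered libraries correlated by 0.115, 0.319 and 0.0649 and not every library was closest to its own number. The block raised the number of all genes called to 3882 (30.3%), and 4 of the 5 tested genes listed for goblet and mucus cells were among them. *fabp2*, *anpepa*, *cdx1b*, *mogat2* and *chia.2* were called under none of the 16 alternatives, and none of the 10 was called higher under any.

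All 10 point estimates were below 0 under every alternative except in 2 fits. Leaving out 1 library put *cdx1b* between -0.75 and 0.060 and *mogat2* between -1.27 and 0.016, above 0 only without TL replicate 2, and the covariate of reads in no gene feature put them at 1.12 and 0.99. With this covariate the edgeR adjusted p was 0.999 for all 10 and *panx1a* was at -2.38 (adjusted p = 0.574), and 1 gene in all was called. The number of all genes called was 2770, 1633 with library size only, and 3 to 4708 leaving out 1 library. In these leave-one-out fits *panx1a* was at -2.90 to -2.62, and edgeR's adjusted p missed the threshold when TL replicate 3 (0.0637) or *panx1a*-/- replicate 3 (0.0649) was dropped. Upper-quartile factors moved the median log2 fold change of all genes to -0.17 and of the 10 genes to -0.85, and scaling by library size moved them to 0.17 and -0.43, against -0.06 and -0.73 in the result given. *cdx1b* and *mogat2* had the fewest counts, 10 to 98 a library.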
